A study of Mus musculus with 4 samples.

Results

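The HoxC cluster on mouse chromosome 15 carried CTCF summits at 12 positions in mouse embryonic stem cells, of which 4 were bound in every library. HoxC holds 9 genes, Hoxc13, Hoxc12, Hoxc11, Hoxc10, Hoxc9, Hoxc8, Hoxc6, Hoxc5 and Hoxc4, in that order along the chromosome. The members described here are all CTCF summits that lie within the span of these genes or within 10 kb of it, at chr15:102911131-103046856 of mm10, whatever their strength. There were 29 such summits among the 334066 of all 4 lists: 5 of 74555 in Del(CBS8-10), 7 of 66365 in Inv, 7 of 99177 in Inv:Del(CBS7-10) and 10 of 93969 in Ins.

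The libraries were made by CUT&RUN, in which an antibody guides a nuclease to a bound protein and the DNA around it is released and sequenced, with 1 library per genotype. Every line carried a HoxB deletion (Del) on one chromosome 11, opposite a chromosome 11 with Del(i9-13) and an inserted array of CTCF sites, Ins(CBS5-10). That array lacked CBS8-10 in the Del(CBS8-10) line, was inverted in the Inv line, was inverted and lacked CBS7-10 in the Inv:Del(CBS7-10) line, and was whole in the Ins line. The genotypes in the labels name no edit on chromosome 15, and the labels do not say whether a line is a single clone. Libraries are called by these names. A single library stands for each genotype, so genotypes could not be tested against each other, and the intervals given cover counting error only.

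CTCF is a zinc-finger protein that binds a long DNA motif and halts the loop-extruding cohesin complex, so that its sites often mark the borders of chromatin domains. Hox genes encode homeodomain transcription factors that give cells their place along the body axis, and within a cluster all Hox genes are transcribed in the same direction, with the group 13 gene furthest upstream. In embryonic stem cells the clusters are largely covered by Polycomb marks, and in mouse motor neurons CTCF sites of HoxA separate active from silent genes.

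The lists differed in background and in pileup. The commonest local background of a list, in fragments per position, was 0.553 in Del(CBS8-10), 0.19 in Inv, 1.327 in Inv:Del(CBS7-10) and 0.858 in Ins, a range of 6.98 times. The median pileup, the number of fragments at a summit, was 17 in Del(CBS8-10), 14 in Inv, 35 in Inv:Del(CBS7-10) and 26 in Ins. Absences of summits are therefore read against how often summits of like strength were missing elsewhere. Strength is the −log10 q that the authors' peak caller gave a peak against its own library, and its percentile is the rank of that value among all peaks of the same list.

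**Figure D1:**
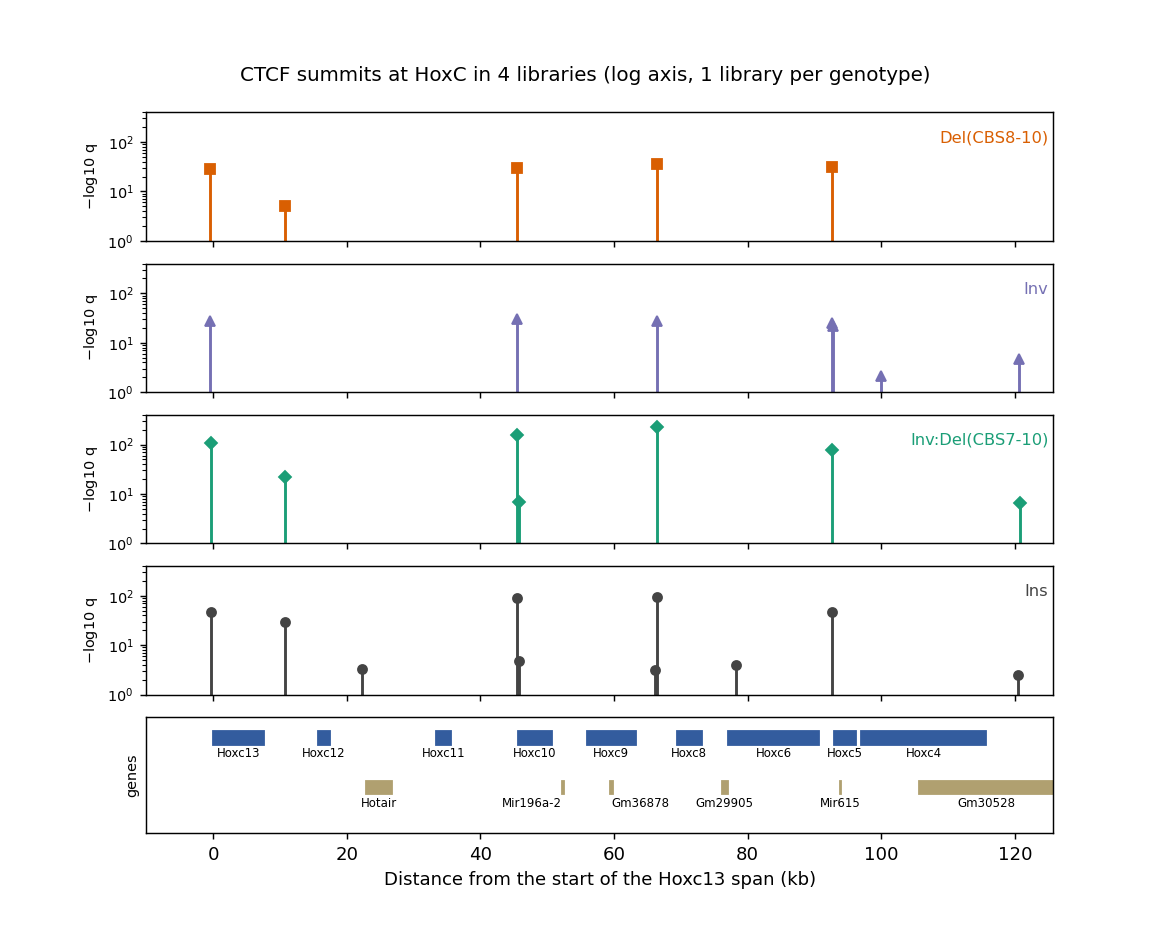
CTCF summits across HoxC, drawn as −log10 q on a log axis against distance in kb from the start of the Hoxc13 span, with a row for each library and the annotated genes below (members in blue, other genes in tan). Each library had summits before Hoxc13, before Hoxc10, between Hoxc9 and Hoxc8 and before Hoxc5. None of the lists had one within the span of Hoxc13, Hoxc12, Hoxc11, Hoxc9, Hoxc8 or Hoxc5.

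Positions were numbered from the Hoxc13 side, with summits of different lists within 100 bp of the next counted as 1 position. Positions 1, 4, 7 and 9 had a summit in all 4 lists, positions 2 and 12 in 3 lists, position 5 in 2 lists, and positions 3, 6, 8, 10 and 11 in 1 list each. Of the HoxC summits, 4 of 5 in Del(CBS8-10), 4 of 7 in Inv, 4 of 7 in Inv:Del(CBS7-10) and 4 of 10 in Ins recurred in every other list. Outside chromosome 11 the shares were 59.5% in Del(CBS8-10), 68.3% in Inv, 45.1% in Inv:Del(CBS7-10) and 47.6% in Ins. Each lies within the 95% interval of its HoxC count, but with so few summits these intervals are wide (16.8 to 68.7% in Ins). Without Inv, the library with the lowest background, 5 positions were bound in all 3 remaining lists, position 2 being the added one.

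Position 1 lay in front of Hoxc13, the most posterior gene of the cluster, which is known for its part in hair and nail formation. Its summit stood at 102920743 in Del(CBS8-10), 102920737 in Inv, 102920772 in Inv:Del(CBS7-10) and 102920779 in Ins. They lay before the annotated start of Hoxc13 by 388 bp in Del(CBS8-10), 394 bp in Inv, 359 bp in Inv:Del(CBS7-10) and 352 bp in Ins. The peaks had a −log10 q of 27.9 in Del(CBS8-10), 26.9 in Inv, 110 in Inv:Del(CBS7-10) and 46.3 in Ins, and the fold over local background was 14.2 in Del(CBS8-10), 15.5 in Inv, 26.3 in Inv:Del(CBS7-10) and 16.0 in Ins. The percentiles were 75.3 in Del(CBS8-10), 74.7 in Inv, 79.4 in Inv:Del(CBS7-10) and 71.8 in Ins. The peak thus held a similar rank in lists that differed in background and pileup. No list had a summit between the edge of the region and this position, over 9606 to 9648 bp, or within the Hoxc13 span.

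Position 2 lay between Hoxc13 and Hoxc12, 3094 bp after the end of Hoxc13 and 4918 bp before Hoxc12. The summits were at 102931927 in Del(CBS8-10), 102931884 in Inv:Del(CBS7-10) and 102931908 in Ins, and the Inv list had none. These summits had a −log10 q of 4.99 in Del(CBS8-10), 22.01 in Inv:Del(CBS7-10) and 29.1 in Ins, with pileups of 8 fragments in Del(CBS8-10), 33 in Inv:Del(CBS7-10) and 32 in Ins. The percentiles, 22.2 for Del(CBS8-10), 48.2 for Inv:Del(CBS7-10) and 60.9 for Ins, were spread more widely than those of any position bound in every list. Of Ins summits outside chromosome 11 with a −log10 q of 20 to 50, 74.6% had a counterpart in the Inv list and 4347 of 17136 had none. Of Inv:Del(CBS7-10) summits in the same class, 64.5% had a counterpart there and 5707 of 16056 had none. The absence of a peak of that strength from the Inv list was thus frequent across the genome.

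Position 3, at 102943497, was a weak summit of the Ins library alone, with a −log10 q of 3.28 at percentile 4.24. It lay 565 bp from Hotair, a long non-coding RNA gene between Hoxc12 and Hoxc11. Among all Ins summits with a −log10 q under 5, 15.3% were found in Del(CBS8-10), 13.9% in Inv and 34.2% in Inv:Del(CBS7-10). Position 3 was thus like most Ins summits of its strength in being absent from the other lists.

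Position 4 was placed just before Hoxc10, a gene of hindlimb and lumbar patterning. Its summits, at 102966621 in Del(CBS8-10), 102966606 in Inv, 102966601 in Inv:Del(CBS7-10) and 102966606 in Ins, fell within 20 bp of each other. They lay before the start of Hoxc10 by 175 bp in Del(CBS8-10), 190 bp in Inv, 195 bp in Inv:Del(CBS7-10) and 190 bp in Ins. Their −log10 q was 30.0 in Del(CBS8-10), 30.6 in Inv, 157 in Inv:Del(CBS7-10) and 91.9 in Ins, and the percentile was 77.6 in Del(CBS8-10), 78.5 in Inv, 87.1 in Inv:Del(CBS7-10) and 90.1 in Ins. The peak intervals were broad, at 691 bp in Del(CBS8-10), 701 bp in Inv, 731 bp in Inv:Del(CBS7-10) and 623 bp in Ins, against list medians of 292 bp in Del(CBS8-10), 285 bp in Inv, 407 bp in Inv:Del(CBS7-10) and 336 bp in Ins.

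Position 5 was a second summit inside the same peak interval as position 4, in the Inv:Del(CBS7-10) and Ins libraries alone. It stood at 102966899 in Inv:Del(CBS7-10), 103 bp into Hoxc10, and at 102966924 in Ins, 128 bp into it. Its −log10 q was 6.81 in Inv:Del(CBS7-10), at percentile 21.0, and 4.84 in Ins, at percentile 13.9. This was 1 of 3 positions that fell inside the span of a member gene. The position 4 intervals of the Del(CBS8-10) and Inv lists covered these bases as well, without a second summit call.

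Position 7, between Hoxc9 and Hoxc8, had the highest −log10 q of the cluster in the Del(CBS8-10), Inv:Del(CBS7-10) and Ins libraries. In mouse spinal cord Hoxc9 is known for setting thoracic and Hoxc8 for setting brachial motor neuron identity. The summits were at 102987617 in Del(CBS8-10), 102987629 in Inv, 102987614 in Inv:Del(CBS7-10) and 102987619 in Ins, a spread of 15 bp. This site lay away from both genes, 3174 bp after the end of Hoxc9 and 2921 bp before the start of Hoxc8. At this position the −log10 q was 36.8 in Del(CBS8-10), 27.9 in Inv, 232 in Inv:Del(CBS7-10) and 94.1 in Ins, and the fold was 15.2 in Del(CBS8-10), 15 in Inv, 25.3 in Inv:Del(CBS7-10) and 20.6 in Ins. The percentiles were 84.1 in Del(CBS8-10), 75.9 in Inv, 95.01 in Inv:Del(CBS7-10) and 90.6 in Ins, of which the value in Inv was the lowest.

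Position 6, at 102987327, shared the peak interval of position 7 in Ins, and no other list had a summit call there. Its −log10 q was 3.11 at percentile 3.85. The position 7 interval of the Inv:Del(CBS7-10) list, from 102987126 to 102987974, covered this base as well. Position 8, at 102999383, was likewise a weak summit of the Ins library alone, with a −log10 q of 3.94 at percentile 8.14. It fell within Hoxc6, a gene expressed in the forelimb region of the trunk.

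Position 9 lay between Hoxc6 and Hoxc5 and close to the start of Hoxc5, a gene of the neck and upper trunk. Its summits, at 103013745 in Del(CBS8-10), 103013742 in Inv, 103013737 in Inv:Del(CBS7-10) and 103013748 in Ins, were the most tightly placed of the 4 positions bound in every list, within 11 bp. They lay before Hoxc5 by 263 bp in Del(CBS8-10), 266 bp in Inv, 271 bp in Inv:Del(CBS7-10) and 260 bp in Ins. They had a −log10 q of 31.7 in Del(CBS8-10), 24.6 in Inv, 77.3 in Inv:Del(CBS7-10) and 47.8 in Ins, at percentiles of 79.5 in Del(CBS8-10), 72.0 in Inv, 72.5 in Inv:Del(CBS7-10) and 72.6 in Ins. The peak width was 650 bp in Del(CBS8-10), 515 bp in Inv, 903 bp in Inv:Del(CBS7-10) and 753 bp in Ins.

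Position 10 was a second summit of that interval in Inv, at 103013872, 136 bp before Hoxc5. Its −log10 q of 22.1, at percentile 68.8, was far above that of the other summits seen once, which ranged from 2.17 to 3.94. Among Inv summits with a −log10 q of 20 to 50, 98.9% had a summit of the Ins list within 100 bp and 99.4% one of the Inv:Del(CBS7-10) list, so position 10 was among 162 and 85 of 15008 that had none. The nearest summit of the other lists, position 9, was between 124 and 135 bp away, and the pileups at positions 10 and 9 of the Inv library were 27 and 29 fragments. In each of the other lists the peak interval of position 9 also covered 103013872. What the Inv list alone had was thus a second summit call within a peak found in every list. Position 10 was joined with position 9 when summits within 250 bp were matched.

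Position 11, at 103021150 within Hoxc4, was a summit of the Inv library with a −log10 q of 2.17, at percentile 1.18, and rested on a pileup of 3 fragments. Position 12 lay 4906 bp beyond the end of Hoxc4, within Gm30528, an annotated long non-coding RNA gene. Its summits were at 103041762 in Inv, 103041847 in Inv:Del(CBS7-10) and 103041676 in Ins. They were 171 bp apart at the extremes, and those of the Inv:Del(CBS7-10) and Ins lists were joined only through that of the Inv list. Here −log10 q reached 4.78 in Inv, 6.65 in Inv:Del(CBS7-10) and 2.49 in Ins, from pileups of 5 fragments in Inv, 12 in Inv:Del(CBS7-10) and 6 in Ins. The Del(CBS8-10) list had no summit in the last 33111 bp of the region.

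On the Hoxc13 side, the nearest summit outside was 25056 bp beyond the edge in Del(CBS8-10), 9884 bp in Inv, 9887 bp in Inv:Del(CBS7-10) and 9877 bp in Ins, with −log10 q of 9.47 in Del(CBS8-10), 6.39 in Inv, 9.74 in Inv:Del(CBS7-10) and 17.6 in Ins. On the Hoxc4 side the Ins list had a weak summit 3710 bp beyond the edge, at 103050566, with a −log10 q of 2.49. The next summit on that side was 45847 bp beyond the edge in Del(CBS8-10), with a −log10 q of 16.5, 45843 bp in Inv, with 20.2, and 45859 bp in Inv:Del(CBS7-10), with 165.

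**Figure D2:**
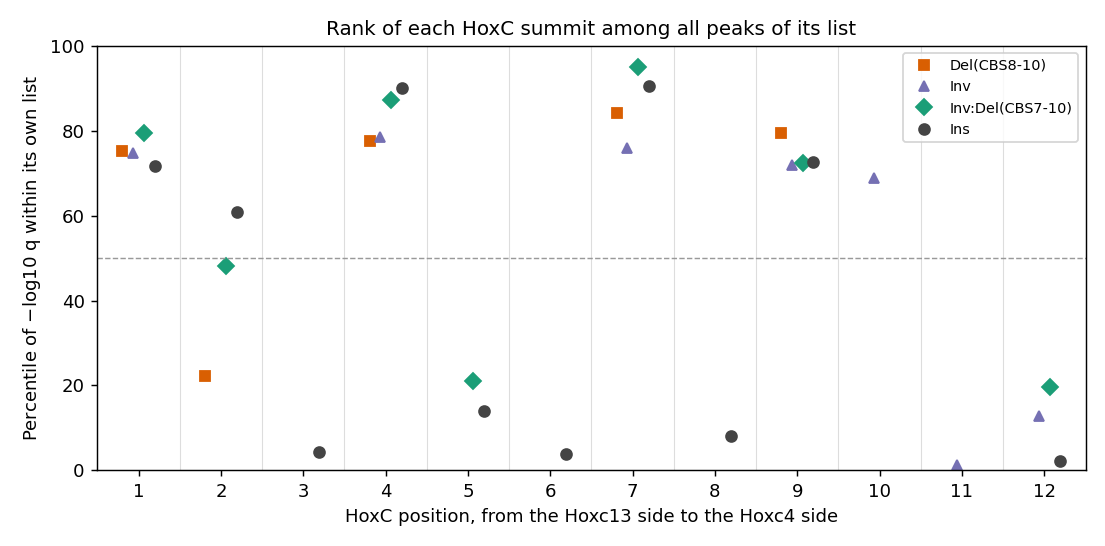
Percentile of −log10 q within its own list (y axis, 0 to 100) for each HoxC summit, by position from the Hoxc13 side (x axis) and library (symbol). Positions 1, 4, 7 and 9 lie between 71.8 and 95.01 in every library, whereas the other positions lie between 1.18 and 68.8.

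The 16 summits of the 4 positions bound in every list lay between the 71.8th and the 95.01st percentile, with a median of 78.1. Their folds ran from 11.7 to 26.3, their pileups from 22 to 225 fragments and their peak widths from 261 to 903 bp. The other 13 summits had percentiles of 1.18 to 68.8 with a median of 13.9, folds of 3.22 to 13.2 and pileups of 3 to 33 fragments, in peaks 200 to 731 bp wide. Strength and recurrence are not independent, since a strong peak is found again more often in any list. The local background relative to the genome background of the same library began at 1.88 times at the 4 positions and at 0.998 times at the other summits, and it reached 8 times in both, so the ranges overlapped.

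The order of the 4 positions by pileup was not the same in every library. In the Inv:Del(CBS7-10) library position 7 had 225 fragments and position 4 had 150, with a 95% interval of 1.21 to 1.86 for the ratio. Position 4 exceeded position 1, at 97, by 1.55 times (1.19 to 2.02), and the ratio of position 1 to position 9, at 94, was 1.03 (0.769 to 1.39). In the Ins library position 4 had 97 and position 7 had 95 fragments, a ratio of 1.02 (0.761 to 1.37), and position 7 exceeded position 9, at 59, by 1.61 times (1.15 to 2.27). Position 1 had 49 fragments there, and the ratio of position 9 to it had an interval of 0.810 to 1.80. In the Del(CBS8-10) library positions 7 and 9 had 39 fragments each, position 4 had 38 and position 1 had 28. In Inv position 4 had 33, position 9 had 29, position 7 had 26 and position 1 had 22. In both of these libraries no neighbours in the order of these 4 differed beyond counting error. Positions 4 and 7 were thus each above positions 1 and 9 beyond counting error in the Inv:Del(CBS7-10) and Ins libraries and not in Del(CBS8-10) or Inv. The ratio of position 7 to position 9 was 1 (0.625 to 1.6003) in Del(CBS8-10), 0.897 (0.507 to 1.58) in Inv, 2.39 (1.87 to 3.08) in Inv:Del(CBS7-10) and 1.61 in Ins. The intervals of Del(CBS8-10) and Inv lay wholly below that of Inv:Del(CBS7-10) and overlapped that of Ins. They hold counting error within 1 library each, so this is no test between genotypes. The pair had the highest ratio among the 4 positions in Inv:Del(CBS7-10). How often pairs of peaks elsewhere differed this much between libraries was not examined.

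**Figure D3:**
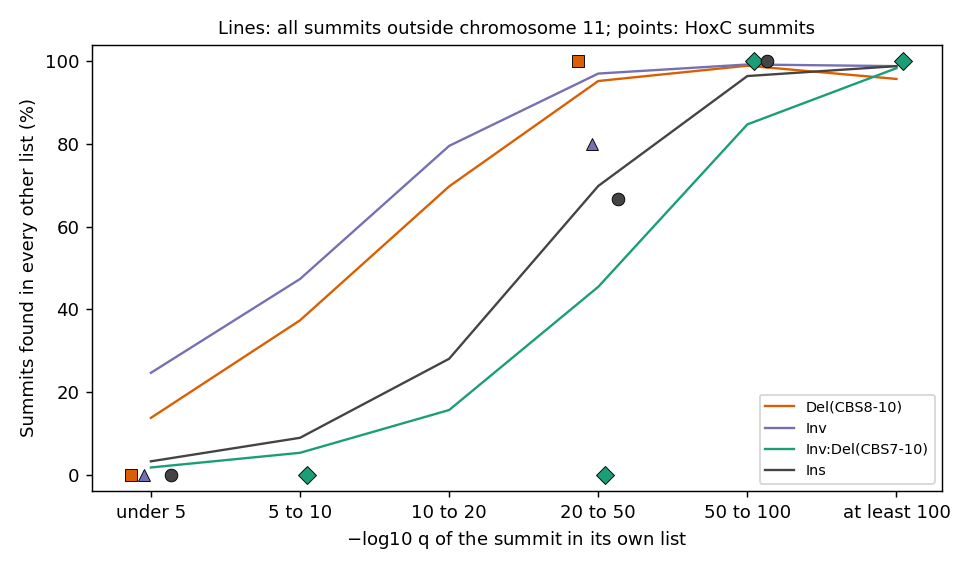
Share of summits found in every other list (y axis, percent) by −log10 q of the summit (x axis, classes), with a line per library for all summits outside chromosome 11 and points for HoxC summits of that library. HoxC summits with a −log10 q of at least 50 were all found again (100%), and none of those under 10 was found in every other list. Among all summits the share at 50 to 100 was 96.4% in Ins and 84.7% in Inv:Del(CBS7-10), with 98.3% from 100 up in Inv:Del(CBS7-10). Under 5 it was 13.7% in Del(CBS8-10), 24.6% in Inv and 3.19% in Ins. At 5 to 10 it was 5.25% in Inv:Del(CBS7-10).

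Each reduced or inverted array line was then set against the Ins line to ask which HoxC summits of one list were present in another. All 5 summits of the Del(CBS8-10) list were found in the Ins list (interval 56.6 to 100%), where 81.4% of all Del(CBS8-10) summits outside chromosome 11 were found. Of the 10 Ins summits, 5 were found in the Del(CBS8-10) list (23.7 to 76.3%), against 64.9% of all Ins summits. Those 5 were positions 1, 2, 4, 7 and 9, and the 5 that were not all had a −log10 q under 5.

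Of the 7 summits of the Inv list, 5 were found in the Ins list (35.9 to 91.8%), against 80.7% of all Inv summits. Positions 10 and 11 were not. Of the 10 Ins summits, 5 were found in the Inv list, against 56.0% of all, namely positions 1, 4, 7, 9 and 12. Position 2 was the strongest Ins summit of the cluster that was missing from the Inv list.

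Of the 7 summits of the Inv:Del(CBS7-10) list, 6 were found in the Ins list (48.7 to 97.4%), against 72.0% of all, and of the 10 Ins summits 6 were found in the Inv:Del(CBS7-10) list, against 76.2% of all. Against the Inv list, 5 of 7 Inv:Del(CBS7-10) summits were found, against 56.3% of all, and 5 of 7 Inv summits were found in the Inv:Del(CBS7-10) list, against 85.8% of all. Positions 1, 4, 7 and 9 were shared in every one of these comparisons. Each of these genome-wide shares lay within the counting interval of the HoxC share. The intervals rest on 5 to 10 summits and are wide, so they could not show a moderate difference. The first 3 comparisons use the same Ins library and are not independent of each other.

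Levels were compared as the log2 ratio of pileup at summits shared by the libraries compared, centred on the median of shared autosomal peaks outside chromosome 11. A ratio past 2-fold counted as a difference in level. In the Del(CBS8-10) library against the Ins library 5.01% of 54412 shared peaks were more than 2-fold higher and 2.21% more than 2-fold lower, and 0 of 5 HoxC positions were. The HoxC ratio nearest to that limit was at position 2, with 8 fragments in Del(CBS8-10) and 32 in Ins and a log2 ratio of −0.97 (−2.30 to 0.18). It lay at the 2.31st percentile of shared peaks. With the local background taken off the pileup, an alternative added once the data had been seen, it was −1.02 and passed the limit. The ratios at positions 1, 4, 7 and 9 were 0.22, −0.32, −0.26 and 0.43, and the counting interval of each included 0.

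In the Inv library against the Ins library 7.98% of 46948 shared peaks were more than 2-fold higher and 9.12% more than 2-fold lower. At HoxC 1 of 5 was past the limit, position 12, with a log2 ratio of 1.15 (−0.90 to 3.13). It rests on 5 fragments in Inv and 6 in Ins, and was not past the limit with the authors' fold in place of pileup. The ratios at positions 1, 4, 7 and 9 were 0.26, −0.14, −0.45 and 0.39, and the interval of each included 0.

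In the Inv:Del(CBS7-10) library against the Ins library 4.97% of 63871 shared peaks were more than 2-fold higher and 10.0% more than 2-fold lower, and 0 of 6 HoxC positions were. Position 7, with 225 fragments in Inv:Del(CBS7-10) and 95 in Ins, had a log2 ratio of 0.53 (0.18 to 0.90). Its interval excluded 0, but the value lay at the 81.7th percentile of shared peaks. The other ratios ran from −0.66 at position 2 to 0.28 at position 1, with intervals that included 0.

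In the Inv:Del(CBS7-10) library against the Inv library 7.04% of 49922 shared peaks were more than 2-fold higher and 10.1% more than 2-fold lower, and 0 of 5 HoxC positions were. Position 7 was again the highest, with 225 fragments in Inv:Del(CBS7-10) and 26 in Inv and a log2 ratio of 0.92 (0.33 to 1.57), at the 91.4th percentile of shared peaks. Positions 1 and 4 had ratios of −0.05 and −0.00493, and position 9 had −0.49 (−1.11 to 0.16). Position 12 had 12 fragments in Inv:Del(CBS7-10) and 5 in Inv, with a ratio of −0.93 (−2.53 to 0.93). With the local background taken off, this was −1.02 and passed the limit.

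**Figure D4:**
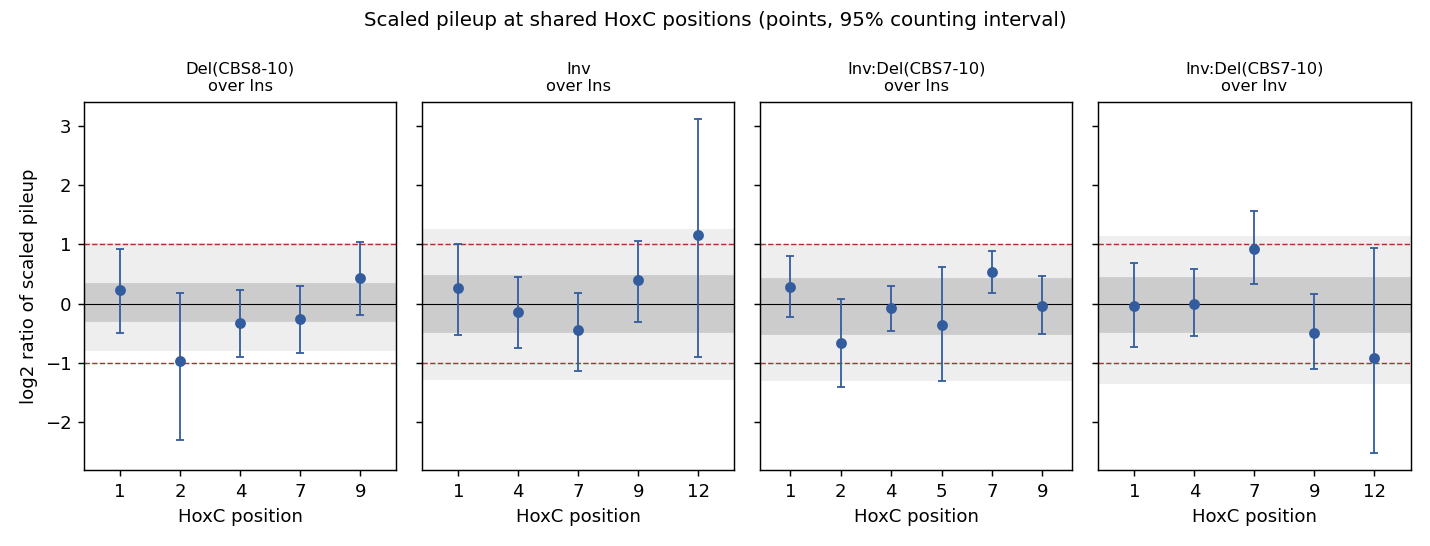
Log2 ratio of scaled pileup (y axis) at HoxC positions (x axis) shared by the libraries named above each panel, with 95% counting intervals. Grey bands hold the middle 50% and 90% of all shared peaks outside chromosome 11 and dashed lines mark 2-fold. The point at position 12 in the Inv panel, 1.15, is the one past a dashed line.

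In every list 3 of 9 members, Hoxc13, Hoxc10 and Hoxc5, had a summit within 500 bp of an end of their span, and in each case it was the upstream end. The share among 20274 protein-coding genes outside chromosome 11 was 16.8% for every list, and 22.2% in Del(CBS8-10), 25.2% in Inv, 30.7% in Inv:Del(CBS7-10) and 33.2% in Ins as single lists. The distance of 500 bp was chosen after the positions were seen, so 3 of 9 is a description. The remaining position bound in every list, between Hoxc9 and Hoxc8, lay at the start of no annotated gene.

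A summit within 10 kb of the gene was present for 9 of 9 members in Del(CBS8-10), 8 of 9 in Inv, 9 of 9 in Inv:Del(CBS7-10) and 9 of 9 in Ins. Among protein-coding genes outside chromosome 11 the shares were 78.8% in Del(CBS8-10), 76.3% in Inv, 82.2% in Inv:Del(CBS7-10) and 81.8% in Ins, and 72.5% for every list, where HoxC had 8 of 9. The gene without one was Hoxc12, whose nearest summit in the Inv list was 16089 bp away. Hoxc11 was counted only because position 4 lay 9900 to 9920 bp from its end, just inside the limit. Within 2 kb the members with a summit in every list were Hoxc13, Hoxc10, Hoxc6 and Hoxc5, and Hoxc12, Hoxc11, Hoxc9, Hoxc8 and Hoxc4 had none in at least 1 list. That is 4 of 9 members, against 57.0% of protein-coding genes outside chromosome 11.

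A summit inside the span was present for 0 of 9 members in Del(CBS8-10), 1 of 9 in Inv (Hoxc4), 1 of 9 in Inv:Del(CBS7-10) (Hoxc10) and 2 of 9 in Ins (Hoxc10 and Hoxc6), and for 0 of 9 in every list. Among protein-coding genes outside chromosome 11 the shares were 53.2% in Del(CBS8-10), 50.2% in Inv, 58.1% in Inv:Del(CBS7-10), 58.3% in Ins and 45.2% in every list. The span of a member ran from 1784 bp for Hoxc12 to 18760 bp for Hoxc4, and a longer span has more room for a summit. Gene length was not matched in these shares, and the differences from the genome share were not tested.

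Pooled over the 4 lists, the longest stretch without a summit ran for 23.1 kb from position 3 to position 4 and held the whole of Hotair and Hoxc11. The next, of 20.5 kb, ran from position 11 to position 12 and held most of Hoxc4. Another of 20.4 kb ran from position 5 to position 6 and held Mir196a-2, Hoxc9 and Gm36878, a long non-coding RNA gene. Mir196a-2 encodes a microRNA that targets Hox transcripts. Hoxc6 was crossed by a stretch of 14.4 kb between position 8 and position 9, and Hoxc8 with the non-coding Gm29905 lay in one of 11.8 kb between positions 7 and 8. Hoxc12 lay in one of 11.6 kb, Hoxc13 in one of 11.1 kb, and Hoxc5 with Mir615 in one of 7.28 kb.

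In the single lists the longest stretch between summits of the region was 34.7 kb in Del(CBS8-10), 45.9 kb in Inv, 34.7 kb in Inv:Del(CBS7-10) and 27.9 kb in Ins. In Del(CBS8-10) and in Inv:Del(CBS7-10) it held Hoxc12, Hotair and Hoxc11. In the Inv library it held Hoxc13 as well, since position 2 had no summit there. In the Ins library the weak position 3 divided that stretch, and the longest one held Hoxc5, Mir615 and Hoxc4. Stretches that ran past the edge of the region on the Hoxc4 side were longer in 3 lists. In Del(CBS8-10) no summit lay between 103013745 and 103092703, which is 79.0 kb and held Hoxc5, Mir615 and Hoxc4. The stretch beyond position 12 was 50.9 kb in Inv, 50.9 kb in Inv:Del(CBS7-10) and 8.89 kb in Ins. Between the 4 positions bound in every list the stretches were 45.8, 21.0 and 26.1 kb.

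The promoter window of Hoxc4 is shown because it lies in the 20.5-kb stretch without a summit and is the single promoter of a member that was matched in the RefSeq table (1 of 9). The Hoxc4 span begins upstream of this transcript start. The 250 bases before this annotated start, at chr15:103034145-103034394 on the plus strand of GRCm38.p6, are printed 5′ to 3′.
Hoxc4 promoter: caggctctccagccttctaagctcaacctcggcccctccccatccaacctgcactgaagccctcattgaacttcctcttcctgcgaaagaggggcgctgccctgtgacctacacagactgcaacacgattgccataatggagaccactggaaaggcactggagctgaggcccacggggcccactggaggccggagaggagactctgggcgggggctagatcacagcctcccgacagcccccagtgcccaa
No list had a summit in these bases. The whole Hoxc4 window runs on past the printed bases to 103034444. The summit nearest to that window was 20400 bp away in Del(CBS8-10), 7318 bp in Inv, 7403 bp in Inv:Del(CBS7-10) and 7232 bp in Ins. The sequence under the summits themselves was not analysed here.

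HoxC was set beside HoxA and HoxD, the other clusters for which the labels name no edit, by the same rule. Positions bound in every list numbered 4 of 12 at HoxC, 8 of 15 at HoxA and 7 of 12 at HoxD, or 2.95, 6.37 and 5.99 per 100 kb of region. All HoxC summits numbered per 100 kb 3.68 in Del(CBS8-10), 5.16 in Inv, 5.16 in Inv:Del(CBS7-10) and 7.37 in Ins, and those of the whole of chromosome 15 numbered 2.80 in Del(CBS8-10), 2.46 in Inv, 3.67 in Inv:Del(CBS7-10) and 3.52 in Ins. The longest stretch between positions bound in every list was 45.8 kb at HoxC, 18.4 kb at HoxA and 13.5 kb at HoxD. None of the 4 HoxC positions lay within a member gene, against 4 of 8 at HoxA and 4 of 7 at HoxD. Those within genes included 3 in the annotated span of Hoxa3 and 2 in that of Hoxd3. These differences between clusters were not tested, and the lengths of the annotated spans were not taken into account.

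Some intervals were bound in every list in more than 1 cluster. The gap between the group 9 gene and the next gene toward the anterior end held such a position at HoxC (Hoxc9 and Hoxc8), at HoxD (Hoxd9 and Hoxd8) and at HoxA (Hoxa9 and Hoxa7, as HoxA has no group 8 gene). Around groups 11 and 10, HoxC had such a position between Hoxc11 and Hoxc10, 190 bp before Hoxc10. At HoxD it lay within the overlapping spans of Hoxd11 and Hoxd10, and at HoxA within Hoxa10. By these span labels the clusters did not share an interval here. The spans of Hoxd11 and Hoxd10 overlap, so no position could be labelled as between them. The space between groups 13 and 12, where HoxC had position 2 in 3 lists, held positions bound in every list at HoxD. HoxA has no group 12 gene, and its space between Hoxa13 and Hoxa11 held 1. Position 1 of HoxC had no close match. The position bound in every list outside Hoxa13 was 9855 bp from it, against 374 bp for position 1 and Hoxc13. Positions outside Hoxd13 were in 1 or 2 lists. Position 9 lay between groups 6 and 5, and HoxD has no gene of either group to compare. At HoxA no position was labelled as between Hoxa6 and Hoxa5. A position inside a member span was labelled by that span, and 3 bound in every list were labelled as within Hoxa3. Whether HoxA has a match for position 9 can therefore not be told from these labels.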

How the data were processed

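CTCF CUT&RUN peak lists of 4 mouse embryonic stem cell lines were used, 1 list per line, with groups taken from the genotype label. Per the submitters' processing notes, cutadapt 4.1, Bowtie2 2.4.5, Picard, bedtools 2.30.0, MACS2 2.2.7.1 and mm10 were used. Their settings, the read filters and any control were not stated there. Chromosome 11 is present as 2 modified copies and was left out of all background shares. The deposited score is the −log10 q multiplied by 10 and made whole. The fold is the ratio of summit pileup to local background as deposited, and the −log10 of p-value and of q-value per peak are also the authors' own. The position of the summit within each peak is as deposited.

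Positions are counted from 1. Read depth was not stated in those notes. Pileup and local background were therefore solved for in each peak from fold and −log10 p-value, taking the fold as pileup plus 1 over background plus 1 and the pileup as a whole number (tolerance 0.001). A solution was found for 100% of peaks in each list, and at most 0.567% of the peaks of a list had more than 1. Matching, recovery and ratios were checked on simulated data. Shares have 95% Wilson intervals, pileup ratios exact binomial ones. Genes and the promoter window came from RefSeq tables of GRCm38.p6, in which 9 of 9 members were found, and 1 of 9 had a promoter window. The work was done with Python 3.11.15, NumPy 2.4.6, pandas 2.3.3, SciPy 1.17.1 and Matplotlib 3.10.9. The members, comparisons and alternatives were chosen with earlier results of these data known. All summits in the region were named, together with every gene there. The alternatives tried were peaks with −log10 q from 10 up, the 20000 strongest, a matching distance of 250 bp, any overlap, a flank of 2 kb, the fold in place of the pileup, centring on chromosome 15 and leaving out the Inv library.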

Additional observations from a re-analysis of the deposited data

How the results depend on the processing

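No paired analysis was possible because each genotype has 1 library and no test between genotypes was made. Of 90 values recomputed under an alternative, 65 stayed within 1.5 times (counts) or within the counting interval (shares) and 25 moved. With the 20000 strongest peaks of each list, the HoxC summits numbered 4 in the Inv library, 2 in the Inv:Del(CBS7-10) library and 2 in the Ins library, positions in all 4 lists numbered 2, and 4 members had a summit within 10 kb in every list. With −log10 q from 10 up the Ins list held 5, and the 4 positions bound in every list remained 4. With a flank of 2 kb, 4 members had a summit in every list. Of Del(CBS8-10) summits 50% (2 of 4) were found in the Ins list among the 20000 strongest. Of Ins summits, those found in the Del(CBS8-10) list became 80% and 100%, those in the Inv list 80% and 100%, and those in the Inv:Del(CBS7-10) list 100% and 100%, with −log10 q from 10 up and with the 20000 strongest. Of Inv:Del(CBS7-10) summits 100% were found in the Ins list with −log10 q from 10 up, the 20000 strongest, 250 bp, any overlap or a flank of 2 kb, and 100% in the Inv list with the 20000 strongest. The limit of 2-fold was passed by 0 positions in the Inv library against the Ins library with −log10 q from 10 up, with the 20000 strongest and with the fold. With the local background taken off, an alternative added once the data had been seen, it was passed by 1 position in the Del(CBS8-10) library against the Ins library (position 2) and by 1 in the Inv:Del(CBS7-10) library against the Inv library (position 12). Fewer peaks enter under the first pair of settings; the cause of the other changes was not tested. Leaving out the Inv library gave 5 positions in every list and 9 members, within 1.5 times of the values with it. Pileups were under 10 fragments at position 2 in Del(CBS8-10), at position 11 and at position 12 in Inv, and at positions 3, 8 and 12 in Ins.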
